A study of Macaca mulatta with 9 samples.

Results

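The aryl hydrocarbon receptor and its classical target genes were followed in the prostate of grown rhesus monkeys (Macaca mulatta) whose mothers had been given the dioxin TCDD. A list of 10 genes was taken: the receptor AHR, its partner ARNT, its repressor AHRR, the cytochrome P450 enzymes CYP1A1, CYP1A2 and CYP1B1, the feedback enzyme TIPARP, the quinone reductase NQO1, the amino acid transporter SLC7A5 and the retinaldehyde dehydrogenase ALDH1A3. The first 8 were looked up by a transcript accession in the array files, where 7 were found and AHRR was not. SLC7A5 and ALDH1A3 were looked up by symbol in the authors' deposited table of changed probes, so both had been picked on these arrays for a difference between groups. This left 9 genes with 1 probe each, out of 20217 probes that carry 19376 distinct sequence names. The accessions of these 9 probes are those of human transcripts, and how well each probe matches the macaque transcript was not tested.

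TCDD is a ligand of the aryl hydrocarbon receptor, a transcription factor that rests in the cytoplasm bound to chaperones. On binding a ligand it enters the nucleus, pairs with ARNT and turns on genes whose regulatory regions carry dioxin response elements. The CYP1 genes are its best known targets and are widely used as a readout of exposure, while AHRR and TIPARP are induced targets that damp the receptor in turn.

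On gestation day 20 each dam was injected under the skin with TCDD at 0 (vehicle), 30 or 300 ng/kg, and maintenance injections of 5% of that first dose followed once per 30 days up to day 90 after birth. Each group is 3 offspring, with 1 prostate and 1 array per animal, and the labels place necropsy 7 years after the exposure, which came by way of the womb and the milk. The offspring themselves were not dosed directly, all groups including vehicle came from injected dams, and the sources used here do not give their litters. Whole gland tissue was homogenised, so fewer cells of a type and less RNA per cell cannot be told apart in any value below.

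The arrays differed in brightness and in slide. The 75th percentile of the signal ran from 513.9 to 1193 intensity units in vehicle, while the 30 ng/kg arrays spanned 343.2 to 1356 and the 300 ng/kg arrays 1258 to 2374, a 6.92-fold range over the 9 arrays. The 2 dimmest arrays were replicates 1 and 3 of 30 ng/kg. Slide 1 held vehicle replicates 1 and 2, slide 2 held vehicle replicate 3 with 30 ng/kg replicates 1 and 2, and slide 3 held 30 ng/kg replicate 3 with all 300 ng/kg arrays, so vehicle and 300 ng/kg never met on a slide. The prostate markers KLK3 (2 probes) and MSMB were well above background on 9 of 9 arrays. Unless a signal is given in intensity units, levels below are log2 values relative to the 75th percentile of the same array, and they compare arrays for 1 probe, not probes with each other.

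The receptor itself was not clearly detected on any array. The AHR probe (NM_001621) was well above background on 0 of 9 arrays by the extraction program's flag. Its signal was 2.82, 0.448 and -2.01 intensity units in vehicle, 0.921, 2.44 and -0.461 at 30 ng/kg, and -1.04, 2.81 and -3.83 at 300 ng/kg. The lowest signal of any probe well above background on the same arrays was at most 15.7 units and AHR reached at most 0.234 of the lowest such signal on its array. The groups overlapped, values lay on both sides of 0, and no fold was computed. Background did not centre on 0: the median of the negative control spots ran from -7.85 to -2.23 units over the arrays. AHR lay above 64.7% to 99.3% of the negative control spots of its array. These numbers bound what this probe could detect and do not show that the gene was off.

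CYP1A1, the xenobiotic hydroxylase most strongly induced by the receptor, was likewise well above background on 0 of 9 arrays (NM_000499). It read 2.55, 2.75 and 2.79 intensity units in vehicle, -0.437, 1.73 and -0.875 at 30 ng/kg, and 4.77, 0.680 and 5.25 at 300 ng/kg. Even the brightest array, 300 ng/kg replicate 3, reached only 0.334 of the lowest detected signal on its own array. Replicates 1 and 3 of 300 ng/kg were the highest of all, but replicate 2 lay below every vehicle array. CYP1A1 lay above 81% to 99.3% of the negative control spots of the same array.

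CYP1A2, its close relative and mainly a liver enzyme, stood at the edge of detection (NM_000761). Both spots of its probe were well above background on 0 arrays, and at least 1 spot was on 2 arrays, vehicle replicate 3 and 300 ng/kg replicate 3. The signals were 4.68, 7.53 and 23.2 intensity units in vehicle, 6.68, 14.3 and 5.81 at 30 ng/kg, and 11.2, 15.9 and 22.9 at 300 ng/kg. The highest value of the series thus came from a vehicle animal, and the groups overlapped. The duplicate spots of this probe differed by up to 3.05 on the log2 scale on a single array, so no fold between groups was computed.

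**Figure D1:**
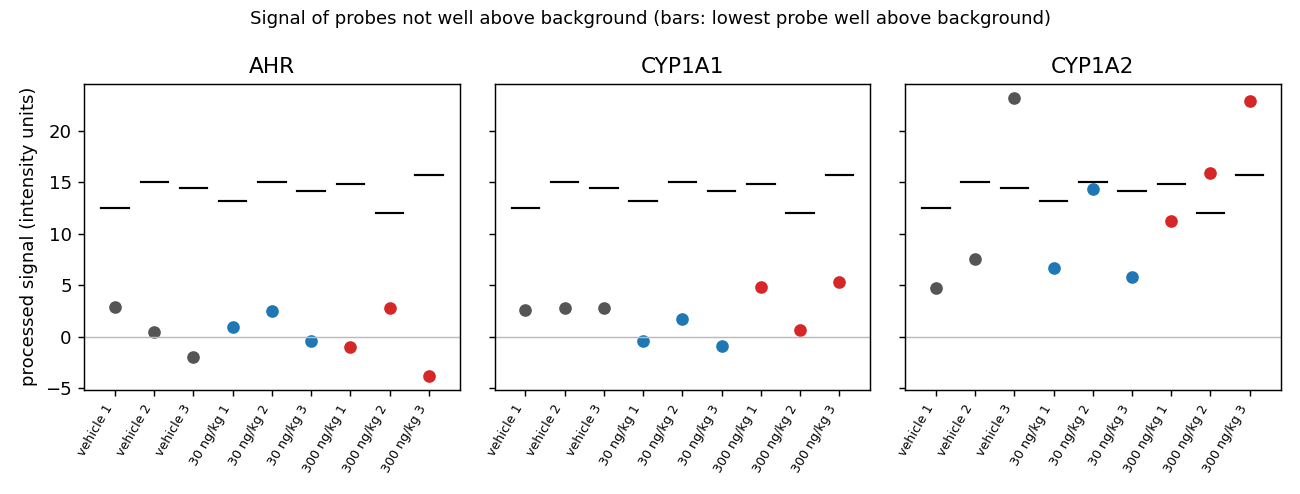
Signal in intensity units (linear axis) of the AHR, CYP1A1 and CYP1A2 probes on each of the 9 arrays, coloured by dose group; the short bars give the lowest signal of any probe well above background on that array. AHR and CYP1A1 stay below the bars on every array, and CYP1A2 comes near or above them in all 3 groups.

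ARNT, CYP1B1, TIPARP and NQO1, all found by accession, passed the filter on dim probes, which asked for both spots well above background on every array of at least 1 group. None of these 4 genes differed between dose groups at an adjusted p under 0.05 in any comparison. Over all 15160 tested probes the share that passed was likewise 0% in each comparison (limma, Benjamini-Hochberg). At an unadjusted p under 0.05, 0 of the 4 passed for 30 ng/kg against vehicle, where 5.05% of all tested probes did, and 0 of the 4 for 300 ng/kg against vehicle, where 15.5% did. For 300 against 30 ng/kg 1 of the 4 passed, CYP1B1, where 20.6% of all tested probes did. That last share was 3.48% with array brightness as a covariate, when 0 of the 4 passed, and 30.5% without 30 ng/kg replicate 2, when 2 did. The values of compared groups overlapped for all 4 genes in all 3 comparisons, while 9.38% of all tested probes did not overlap for 30 ng/kg against vehicle, 22.7% for 300 ng/kg against vehicle and 25.6% for 300 against 30 ng/kg. The authors' deposited table, which lists 1502 probes (7.43% of the array), holds 0 of the 7 probes found by accession.

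The medians of the 4 differences were small. For 30 ng/kg minus vehicle the median was -0.32 on the log2 scale, with 1 gene higher and 3 lower, against 0.02 over all tested probes. For 300 ng/kg minus vehicle it was 0.21, with 3 higher and 1 lower, against -0.01. For 300 minus 30 ng/kg it was 0.27, with 2 in each direction, against -0.03. The comparisons share arrays, so their values are given side by side and are not independent.

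ARNT, the partner that AHR needs to bind DNA and that also serves the hypoxia factors, was measured on 9 of 9 arrays (NM_001668). It stood at -3.18, -3.58 and -3.24 in vehicle, -3.69, -3.75 and -3.46 at 30 ng/kg, and -3.48, -3.93 and -3.70 at 300 ng/kg. Both exposed groups sat slightly lower, and vehicle replicate 2 lay within their range. The difference from vehicle was -0.30 ± 0.22 (SE of the limma fit, n = 3 per group) at 30 ng/kg, with an adjusted p of 0.946, and -0.37 ± 0.22 at 300 ng/kg, with an adjusted p of 0.412. ARNT was the steadiest of the 4, with a residual SD of 0.201 that only 10.4% of tested probes undercut. Its 95% interval at 300 ng/kg ran from -0.87 to 0.13, or from 0.547-fold to 1.09-fold. With normexp background correction in place of the program's own, the 30 ng/kg difference turned to 0.41, a correction that moved the median of all tested probes by 0.27 in that comparison.

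CYP1B1, the member of the CYP1 family found mainly outside the liver, which oxidises oestrogens and polycyclic hydrocarbons, was bright on every array (NM_000104), with signals from 1085 to 25738 intensity units. Relative to the 75th percentile it read 3.12, 2.87 and 2.68 in vehicle, 1.66, 3.19 and 1.78 at 30 ng/kg, and 2.92, 3.12 and 3.44 at 300 ng/kg. The vehicle and 300 ng/kg animals shared 1 range, and the only low values were 30 ng/kg replicates 1 and 3, while replicate 2 of the same dose was the second highest array. The group mean was 2.89 ± 0.22 (SD, n = 3) in vehicle. It was 2.21 ± 0.85 for the 30 ng/kg animals and 3.16 ± 0.26 for the 300 ng/kg animals.

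At 300 ng/kg CYP1B1 differed from vehicle by 0.27 ± 0.39 (SE, limma, adjusted p = 0.757), with a 95% interval from 0.649-fold to 2.23-fold. This difference was 1.12 ± 0.83 with slide as a fixed block and -0.33 ± 0.34 with array brightness as a covariate. At 30 ng/kg the difference was -0.69 ± 0.39, with an adjusted p of 0.946. Between the doses CYP1B1 was higher at 300 than at 30 ng/kg by 0.95 ± 0.39, or 1.93-fold, with an unadjusted p of 0.0387 and an adjusted p of 0.221 in the limma fit. The 2 low arrays behind that difference were also the dimmest of the series, at 343.2 and 362.9 intensity units. With array brightness as a covariate the difference between the doses was 0.08, and with these 2 arrays left out, which leaves 1 array at 30 ng/kg, it was -0.03. Within slide 3, which holds 1 of the 2 low arrays, it was 1.38. Without 30 ng/kg replicate 2 it was 1.44 with an adjusted p of 0.0344, in a fit that called 774 probes of all tested, and with array weights it was 1.28 with an adjusted p of 0.0269, in a fit that called 2951. The part of brightness in the CYP1B1 values was not tested.

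**Figure D2:**
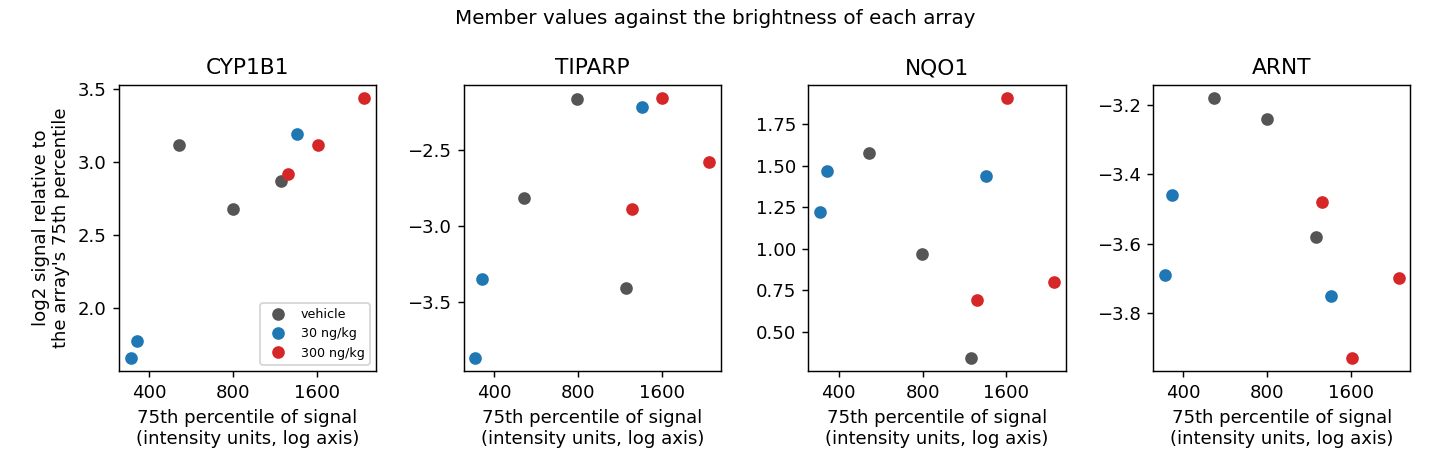
Log2 level relative to the 75th percentile of each array (vertical axes, which differ between panels) against that 75th percentile in intensity units (log axis) for CYP1B1, TIPARP, NQO1 and ARNT, with 1 point per array coloured by dose group. The low CYP1B1 values of 1.66 and 1.78 and the low TIPARP values of -3.87 and -3.35 at 30 ng/kg belong to the arrays with 75th percentiles of 343.2 and 362.9.

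Among the 1122 tested probes with a symbol in the authors' deposited table, those with a pattern most like that of CYP1B1 were ARMCX2 (Pearson r = 0.931 over the 9 arrays), TIGD2 (0.897) and C20orf158 (0.884). These are descriptions without a test, and the arrays share their brightness. The log2 of the 75th percentile had an r of 0.846 with CYP1B1, 0.846 with ARMCX2, 0.946 with TIGD2 and 0.861 with C20orf158. Over the 7 arrays left without the 2 dimmest, the r of CYP1B1 was 0.184 with ARMCX2, 0.661 with TIGD2 and 0.324 with C20orf158, and 0.528 with brightness. The likeness to ARMCX2 and C20orf158 therefore rested on these 2 arrays.

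TIPARP, a mono-ADP-ribosyltransferase that is induced by the receptor and restrains it, was the most variable of the 4, with a residual SD of 0.641 that 77.1% of tested probes undercut. Both spots were well above background on 8 of 9 arrays, all but 30 ng/kg replicate 1 (NM_015508). It stood at -2.82, -3.41 and -2.17 in vehicle, -3.87, -2.22 and -3.35 at 30 ng/kg, and -2.89, -2.16 and -2.58 at 300 ng/kg. The dim 30 ng/kg arrays were again low, with only vehicle replicate 2 between them, and each group held 1 array at about the same high level (-2.17, -2.22 and -2.16). The difference from vehicle was -0.34 ± 0.46 at 30 ng/kg and 0.26 ± 0.46 at 300 ng/kg (limma, adjusted p = 0.963 and 0.802). Between the doses it was 0.60 ± 0.46, with an adjusted p of 0.458. That last difference was -0.09 with brightness as a covariate, -0.49 with normexp background correction, where all tested probes moved by a median of -0.49, and 0.81 within slide 3.

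NQO1, which reduces quinones and answers both to the receptor and to the oxidative stress factor NFE2L2, was bright on 9 of 9 arrays (NM_000903). Vehicle replicates read 1534, 1511 and 1560 intensity units, almost the same signal, but 1.58, 0.34 and 0.97 once each was set against the 75th percentile of its array. The 30 ng/kg arrays stood at 1.22, 1.44 and 1.47 and the 300 ng/kg arrays at 0.69, 1.91 and 0.80. The highest value came from a 300 ng/kg animal and the lowest from a vehicle animal, both replicate 2, and the 30 ng/kg group lay inside the vehicle range. NQO1 differed from vehicle by 0.41 ± 0.40 at 30 ng/kg and by 0.17 ± 0.40 at 300 ng/kg (limma, adjusted p = 0.946 and 0.856). The duplicate spots of this probe differed by a median of 0.045 on the log2 scale, while the residual SD between arrays, 1 per animal, was 0.535. The 95% interval at 300 ng/kg ran from 0.604-fold to 2.10-fold. Without 300 ng/kg replicate 2 the difference from vehicle turned to -0.22.

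**Figure D3:**
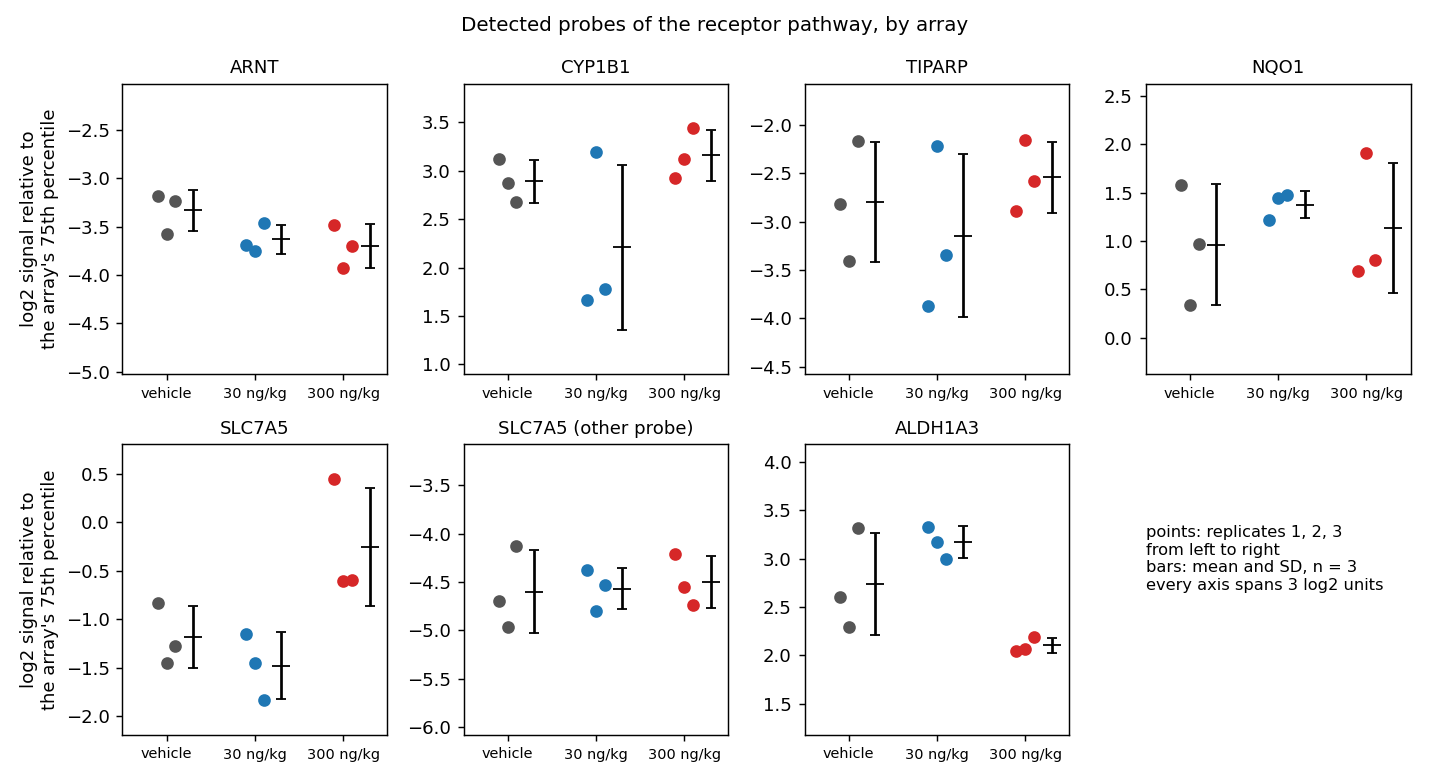
Log2 level relative to the 75th percentile of each array for the 6 measured genes and the other SLC7A5 probe in vehicle, 30 ng/kg and 300 ng/kg animals; points are replicates 1 to 3, bars are mean and SD (n = 3), and each vertical axis spans the same number of log2 units. ARNT, CYP1B1, TIPARP and NQO1 overlap between all groups, while the first SLC7A5 probe is higher and ALDH1A3 lower at 300 ng/kg.

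SLC7A5 and ALDH1A3 are described without a test, because the table that supplied them lists only probes the authors had picked on these arrays. SLC7A5 encodes LAT1, which carries large neutral amino acids, tryptophan and its derivatives among them, into cells. The listed probe stood at -0.83, -1.45 and -1.28 in vehicle, -1.15, -1.45 and -1.84 at 30 ng/kg, and 0.45, -0.61 and -0.60 at 300 ng/kg. All 300 ng/kg animals lay above all others, with replicate 1 the highest, and vehicle and 30 ng/kg overlapped. Over all tested probes, 11.5% lay above vehicle in this way at 300 ng/kg, and 11.2% above 30 ng/kg. Its difference from vehicle was 0.94 ± 0.34 (SE) at 300 ng/kg, while the 30 ng/kg animals stood at -0.29 ± 0.34 from vehicle. The authors' deposited table gives a fold of 1.91 up and of 1.23 down. Without 300 ng/kg replicate 1 the difference at 300 ng/kg was 0.58. With slide as a fixed block, which rests on the single vehicle array of slide 2, it was 1.56. Slide as a random block gave 0.97.

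The other SLC7A5 probe, which carries the same accession (NM_003486) and is absent from the authors' deposited table, did not show this. It was dimmer, with 15.8 to 88.8 intensity units and both spots well above background on 6 of 9 arrays. It read -4.70, -4.97 and -4.13 in vehicle, -4.38, -4.80 and -4.53 at 30 ng/kg, and -4.21, -4.55 and -4.74 at 300 ng/kg, with all groups overlapping. Its difference from vehicle at 300 ng/kg was 0.10 ± 0.27 (limma, adjusted p = 0.876), with a 95% interval from -0.52 to 0.72, so the 2 probes of the gene disagreed in size, and the difference between the probes was not tested. The sign of this probe's difference changed to -0.49 under normexp.

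ALDH1A3 makes retinoic acid from retinaldehyde and is an abundant transcript of prostate epithelium. It read 2.6, 2.29 and 3.32 in vehicle, 3.33, 3.17 and 3.00 at 30 ng/kg, and 2.05, 2.07 and 2.19 at 300 ng/kg. The 300 ng/kg animals were tightly grouped below all others, while the 30 ng/kg animals overlapped only with vehicle replicate 3. Over all tested probes, 11.2% lay below vehicle without overlap at 300 ng/kg, and 14.4% below 30 ng/kg. The difference from vehicle was -0.63 ± 0.28 (SE) at 300 ng/kg and 0.43 ± 0.28 at 30 ng/kg, and 300 lay below 30 ng/kg by -1.07 ± 0.28. The authors' deposited table gives a fold of 1.55 down at 300 ng/kg and 1.35 up at 30 ng/kg. Within slide 2, which holds 30 ng/kg replicates 1 and 2 and only vehicle replicate 3, the difference at 30 ng/kg was -0.07. Within slide 3 the difference between the doses was -0.90. Without vehicle replicate 3 the difference was -0.34 at 300 ng/kg and 0.72 at 30 ng/kg.

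Markers of the cell types that make up the gland are described beside these values. Few could be matched, all through the authors' deposited table: 3 of 11 luminal, 2 of 7 basal, 2 of 8 smooth muscle, 2 of 7 fibroblast, 1 of 5 endothelial, 1 of 6 myeloid, 1 of 4 plasma cell and 1 of 4 adipocyte markers. Every matched marker had thus been picked on these arrays for a difference, and unchanged markers could not appear. Over all tested probes, 4.93% lay above and 4.45% below vehicle without overlap at 30 ng/kg. At 300 ng/kg 11.5% lay above and 11.2% below it. The luminal markers KLK3 (unsaturated probe) and MSMB ranged from 3.30 to 5.79 and 5.22 to 6.64 in vehicle, and from 2.74 to 3.02 and 4.88 to 5.43 at 300 ng/kg, while TGM4 ranged from -4.55 to -2.54 and from 1.42 to 7.41. Summed over the 3 genes, in multiples of the 75th percentile, the luminal level was 52.4 to 155 in vehicle, 144 to 163 at 30 ng/kg and 52.6 to 220 at 300 ng/kg. The smooth muscle sum was 222 to 339, 243 to 449 and 117 to 199, and the fibroblast sum 6.72 to 8.01, 5.93 to 8.52 and 10.8 to 20.0. The basal sum was 4.53 to 6.96, 7.72 to 10.3 and 5.96 to 6.35, so it was highest at 30 ng/kg. It rested almost wholly on ITGB4, with log2 ranges of 2.17 to 2.79, 2.94 to 3.37 and 2.53 to 2.64. The other matched basal marker, S100A2, went the other way at 30 ng/kg. It ranged from -5.43 to -4.94, -6.1 (the floor) to -5.36 and -5.09 to -2.52 in the same order. On the log2 scale, the endothelial marker PECAM1 ranged from -0.13 to 0.29 in vehicle, from 1.13 to 1.60 at 30 ng/kg and from -0.56 to 0.36 at 300 ng/kg. The plasma cell marker XBP1, which secretory cells also express, ranged from 1.14 to 1.34, 1.12 to 2.03 and 2.31 to 2.89. The myeloid marker CTSS, without both spots well above background on every array, ranged from -4.64 to -4.31, -4.99 to -4.14 and -3.87 to -3.69. Their part in the SLC7A5 and ALDH1A3 values was not tested.

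**Figure D4:**
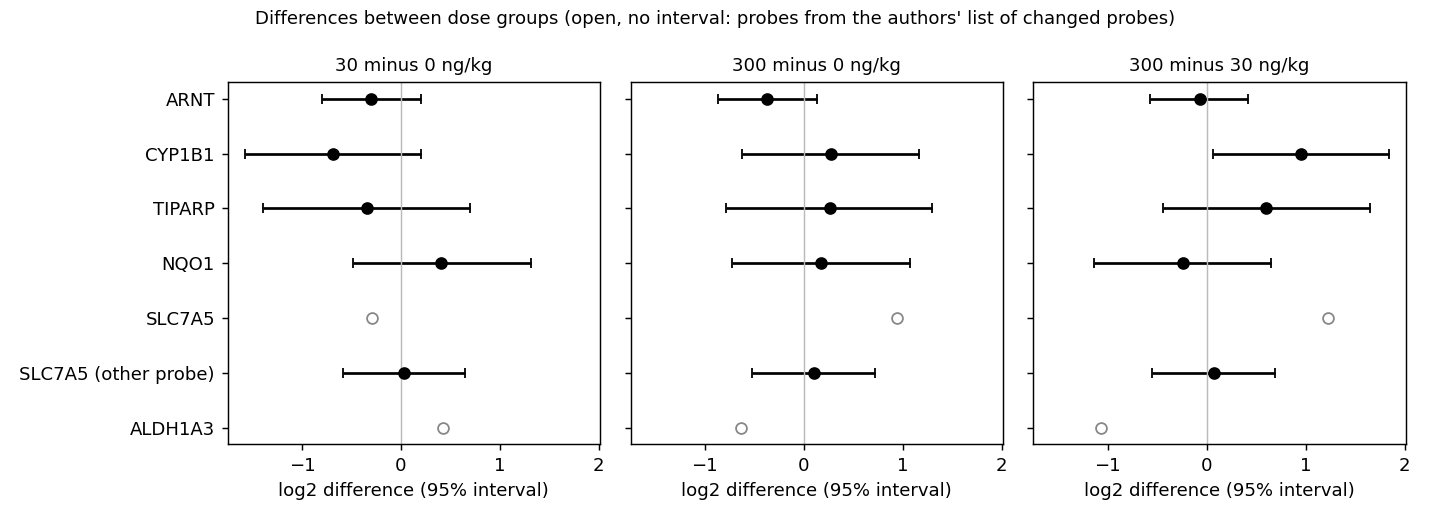
Differences between dose groups on the log2 scale from the limma fit over all 9 arrays; filled symbols with 95% intervals are probes found by accession and the other SLC7A5 probe, and open symbols, without an interval, are the probes of SLC7A5 and ALDH1A3 from the authors' list of changed probes. For ARNT, CYP1B1, TIPARP and NQO1 the interval excludes 0 only for CYP1B1 at 300 minus 30 ng/kg (0.06 to 1.84).

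Other genes of the pathway could be named only where the authors' deposited table gives a symbol, so every one of them was picked on these arrays for a difference, and counts of them do not describe the lists as wholes. None passed an adjusted p of 0.05 in the limma fit in any comparison. Of 25 genes of the receptor complex and its partners, 1 was tested through that table, RELB, an NF-kappaB subunit that can pair with AHR. The same list also holds ARNT and TIPARP, which were tested by accession above. RELB stood at 2.69, 3.21 and 2.65 in vehicle, 2.12, 1.79 and 1.59 at 30 ng/kg, and 1.55, 2.17 and 1.91 at 300 ng/kg, so both exposed groups lay below vehicle without overlap, as 4.45% of all tested probes did at 30 ng/kg and 11.2% at 300 ng/kg.

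Of 50 receptor target genes, 7 were tested through the authors' deposited table, SLC7A5 and ALDH1A3 among them. The same list also holds CYP1B1 and NQO1, which were tested by accession above. The 4 described here besides SLC7A5 and ALDH1A3 are GSTM1, a glutathione transferase, HES1, a Notch effector, LPL, lipoprotein lipase, and STC2, a stanniocalcin. At 300 ng/kg, 3 of these 4 had a positive and 1 a negative difference from vehicle, with a median of 1.12. Since all 4 had been picked on these arrays for a difference, the median over all tested probes is no baseline for this value. At 30 ng/kg 2 were positive and 2 negative, with a median of 0.02. HES1 read -0.19, 0.02 and -0.25 in vehicle, -1.22, 0.58 and -0.16 at 30 ng/kg, and 1.75, 0.52 and 1.56 at 300 ng/kg. STC2 differed from vehicle by 1.01 ± 0.40 and GSTM1 by -0.62 ± 0.20 at 300 ng/kg (SE). LPL was above vehicle at both doses without overlap (4.93% of all tested probes were at 30 ng/kg and 11.5% at 300 ng/kg), by 1.52 ± 0.29 at 30 ng/kg and 1.24 ± 0.29 at 300 ng/kg, and it was the only matched one of 4 adipocyte markers.

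Of 25 oxidative stress genes listed with NQO1, 2 were tested through the authors' deposited table, and NQO1 itself by accession above. GPX2, a glutathione peroxidase of epithelia, read -2.84, -3.38 and -3.43 in vehicle, -2.22, -2.38 and -1.17 at 30 ng/kg, and 0.10, -1.79 and 0.81 at 300 ng/kg, with both exposed groups above vehicle without overlap, as were 4.93% of all tested probes at 30 ng/kg and 11.5% at 300 ng/kg. TALDO1, transaldolase of the pentose phosphate pathway, differed from vehicle by 0.81 ± 0.26 and 0.89 ± 0.26 (SE). Of 24 retinoid genes listed with ALDH1A3, 3 were tested through that table, ALDH1A3 included. CRABP2, which carries retinoic acid to its nuclear receptors, read -4.10, -4.68 and -3.94 in vehicle, -4.35, -4.82 and -3.50 at 30 ng/kg, and 2.16, -3.47 and 1.52 at 300 ng/kg, so replicate 2 lay just above the other groups and far below its own. RBP4, the retinol carrier, read -3.12, -2.17 and -1.57 in vehicle, -1.88, -1.45 and -2.85 at 30 ng/kg, and 0.71, -1.4 and 0.62 at 300 ng/kg. Replicate 2 was again the lowest at 300 ng/kg, barely above 30 ng/kg replicate 2. For both genes 300 ng/kg lay above the other groups without overlap, as 11.5% of all tested probes did against vehicle and 11.2% against 30 ng/kg.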

How the data were processed

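Prostate RNA (0.5 ug, Cy3) was hybridised to 1-colour Agilent arrays, grouped by the dose in their labels. Spot values come from Agilent Feature Extraction 9.5.1.1, per the file headers (9.5 in the submitters' processing notes). The deposited processed signal is an intensity after background subtraction, without scaling between arrays. The authors' deposited table gives folds as a ratio with a direction, and group means as log2 values, for 1502 probes that met an analysis of variance p limit of 0.05 together with a 1.5-fold limit. Another 9 columns of flags in it were not used here.

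Signals of the 2 spots were averaged without outlier spots (both kept if both were flagged), divided by the array's 75th percentile, floored at 5 units of the dimmest array (-6.10) and log2 transformed. Of 20217 probes, 15160 were tested, those with both spots well above background on every array of a group or more. limma 3.58.1 (R 4.3.3; statmod 1.5.0) fitted group as the sole term over the 9 arrays, 2-sided, with Benjamini-Hochberg adjustment over all tested probes and a threshold of 0.05; the script was tested on simulated data. SEs and 95% intervals are from this fit, and 3 arrays per group limit the precision. A p-value here sets a group difference against the spread between arrays, 1 per animal, in which animal, brightness and slide are not separated.

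Every member on the array is named, then up to 4 tested genes per further list, brightest first, and the 3 probes with a symbol most like a member measured on all arrays. The members and lists were chosen with earlier results of these data known, and 1 tested gene of a list is not reported here. Alternatives were normexp (offset 50, on median spot signals), quantile or median scaling, testing every probe or just those above background on all 9 arrays, a floor of 1 unit, keeping outlier spots, fitting 2 groups at a time, slide as a fixed or random block, single slides, a replicate block, array weights, a brightness covariate, and leaving out each array. Leaving out the 2 dimmest arrays was added after seeing the data.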

Additional observations from a re-analysis of the deposited data

Results flagged for a closer look

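ALDH1A3 stood on opposite sides of the vehicle mean at the 2 doses: every 30 ng/kg array lay above it and every 300 ng/kg array below it. The mean differences from the vehicle level of 2.74 were 0.43 at 30 ng/kg and -0.63 at 300 ng/kg, and 300 minus 30 ng/kg was -1.07. The difference was not tested, since the gene had been picked on these arrays. Of all 15160 tested probes, 729 (4.81%) showed such opposite sides. Within slide 2 the 30 ng/kg difference was -0.07, against vehicle replicate 3 alone.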

How the results depend on the processing

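The adjusted call counts, and the counts of members past either threshold, stood at 0 or within 1.5 times their value except as follows. For 30 ng/kg against vehicle, 6 probes of all tested were called with slide as a fixed block, and 1 member had an unadjusted p under 0.05 with array weights. For 300 ng/kg against vehicle, array weights called 198 probes. For 300 against 30 ng/kg, 1 probe was called with quantile scaling, 3 with median scaling, 2 with slide as a fixed block and 2951 with array weights, the last with 1 member called and 2 under an unadjusted 0.05. The 1 member under an unadjusted 0.05 between the doses, CYP1B1, was no longer so (0 members) with no filter, with the compared groups only, with brightness as a covariate and without the 2 dimmest arrays. Leaving out 1 array gave 0 to 1, 0 to 271 and 0 to 774 probes called in the 3 comparisons in that order, the highest without 30 ng/kg replicate 2, 300 ng/kg replicate 2 and 30 ng/kg replicate 2. Members under an unadjusted 0.05 then numbered 0 to 1 for 30 ng/kg against vehicle and 0 to 2 between the doses. Members called numbered 0 to 1 between the doses. The unadjusted count between the doses was 0 without vehicle replicate 2, 30 ng/kg replicate 1 or 3, or 300 ng/kg replicate 2 or 3. Without 300 ng/kg replicate 2, 155 probes were called between the doses. The share of all tested probes under an unadjusted 0.05 moved as well. For 30 ng/kg against vehicle (5.05%) it ran from 2.03% without the 2 dimmest arrays to 20.8% with array weights, and was 12.8% without 30 ng/kg replicate 2. For 300 ng/kg against vehicle (15.5%) it ran from 6.58% without 300 ng/kg replicate 3 to 30.6% with array weights. Between the doses (20.6%) it ran from 2.84% without the 2 dimmest arrays to 39.2% with array weights, and was 10.5% without 30 ng/kg replicate 1 and 10.7% without 300 ng/kg replicate 3.

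Over 9 same-numbered pairs of arrays, deviations correlated from -0.256 to 0.543, with 4 above 0.1. These values cannot decide whether the replicate numbers pair the animals, because differently numbered pairs are not given beside them and the litters are unknown. A replicate block called 1 probe of all tested between the doses and changed no call of a member.

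Signs turned as follows, none with a call. For 30 ng/kg against vehicle, slide as a fixed block and slide 2 alone gave ALDH1A3 -0.07, while slide as a random block gave 0.39. Normexp gave ARNT 0.41 and TIPARP 0.46 there, and leaving out the 2 dimmest arrays gave CYP1B1 0.29 and TIPARP 0.59. The other SLC7A5 probe gave -0.10 with quantile and -0.06 with median scaling, and -0.46 with slide as a fixed block and within slide 2. With brightness it gave -0.08, and without the 2 dimmest arrays -0.19. For 300 ng/kg against vehicle, brightness gave CYP1B1 -0.33 and TIPARP -0.22. TIPARP was -0.03 with normexp and -0.07 with slide as a fixed block, and NQO1 was -0.29 with array weights. The other SLC7A5 probe gave -0.49 with normexp and -0.43 with slide as a fixed block. Between the doses, ARNT gave 0.14 with quantile scaling, 0.11 with median scaling, 0.16 with brightness and 0.04 without the 2 dimmest arrays, and CYP1B1 gave -0.03 without them. TIPARP gave -0.49 with normexp, -0.09 with brightness and -0.33 without the 2 dimmest, NQO1 0.04 with brightness, and the other SLC7A5 probe -1.22 with normexp. Leaving out 1 array moved TIPARP from -0.81 to 0.02 at 30 ng/kg and from -0.04 to 0.57 at 300 ng/kg, NQO1 from -0.22 to 0.48 at 300 ng/kg and ARNT from -0.19 to 0.04 between the doses. The other SLC7A5 probe ranged from -0.15 to 0.27, -0.08 to 0.34 and -0.08 to 0.19 in the 3 comparisons. Normexp moved the median of all tested probes by 0.27, -0.22 and -0.49, and median scaling by up to 0.18. The cause was not tested.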
